A study of Bos taurus with 6 samples.

Results

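Nucleosides are the base-and-sugar units of RNA and DNA and of signalling molecules such as adenosine, and they cross membranes through carrier proteins of the SLC28 and SLC29 families. SLC28 carriers are concentrative, which means that they use the sodium gradient to pull nucleosides into a cell, and they are best known from epithelia of kidney, intestine and liver. SLC29 carriers are equilibrative, and they let nucleosides move either way down their own gradient in most tissues. In muscle, which turns over much ATP, equilibrative carriers and salvage enzymes handle the adenosine and inosine that this turnover leaves.

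The expression of all 7 listed nucleoside transporter genes, 3 of the SLC28 and 4 of the SLC29 family, was described among the 22839 gene symbols counted in the longissimus thoracis (LT) muscle of Korean cattle. The genes were taken by family name, and the family was taken because SLC28A1 was known to differ between the groups compared, so the difference in SLC28A1 is described here without a test. SLC28A1 was chosen by its read counts in these same libraries, and the other 6 genes by name alone. The 6 libraries, 1 per animal, came from Hanwoo steers, which are castrated males, that were reared and fed conventionally. The high-NFMP group was 3 steers with many fine marbling particles, which are small flecks of intramuscular fat, aged 32.5 (steer 3-8), 33.8 (10-8) and 34.5 months (10-9). The low-NFMP group was 3 steers with few of them, aged 37.8 (steer 3-1), 33.7 (3-3) and 35.4 months (10-16). NFMP, the number of fine marbling particles, was measured and not assigned, so whatever else differed between these steers goes with it.

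Between 16283873 and 17192750 reads were counted in a library, and 3 reads, the limit that a count of 0 allows, came to between 0.174 and 0.184 per 1e6 reads of a library. These limits and the intervals of single libraries cover counting error only. The 9 skeletal muscle markers, such as ACTA1, CKM and TTN, summed to between 100650 and 125686 CPM (counts per 1e6 reads of the library size after TMM scaling, a correction for composition), so the libraries had the labelled tissue. Markers of other tissues set single libraries apart, a different one for each list. The 7 adipocyte markers summed to 551.7 CPM in steer 3-8 and to between 184.7 and 259.5 CPM in the other 5, and the 6 liver markers summed to 265 counts in steer 10-9 and to between 11 and 43 in the other 5.

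Of the concentrative carriers, SLC28A1 was abundant in the high-NFMP steers. SLC28A1 (CNT1), which prefers pyrimidine nucleosides such as uridine and cytidine, had 3314, 2764 and 2120 reads with high NFMP (steers 3-8, 10-8 and 10-9, the order used throughout). With low NFMP (steers 3-1, 3-3 and 10-16) it had 480, 108 and 323 reads. The groups thus did not overlap, as in 17.1% of all tested genes in either direction, and steer 3-3 was the lowest of all. Ordered by count, SLC28A1 stood between rank 517 and rank 884 of the genes of a library in the high-NFMP group and between rank 3780 and rank 8666 in the low-NFMP group. After normalization for library size and composition, the lowest high-NFMP steer was 4.63 times as high as the highest low-NFMP steer, and the highest was 33.6 times as high as the lowest. The fitted log2 fold change was 3.27 (standard error 0.54). It rests on these 6 libraries alone, and measurements of SLC28A1 by quantitative PCR were not analysed here. In bulk muscle, a change in the number of cells with a transcript and a change in the transcript per cell cannot be told apart.

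**Figure D1:**
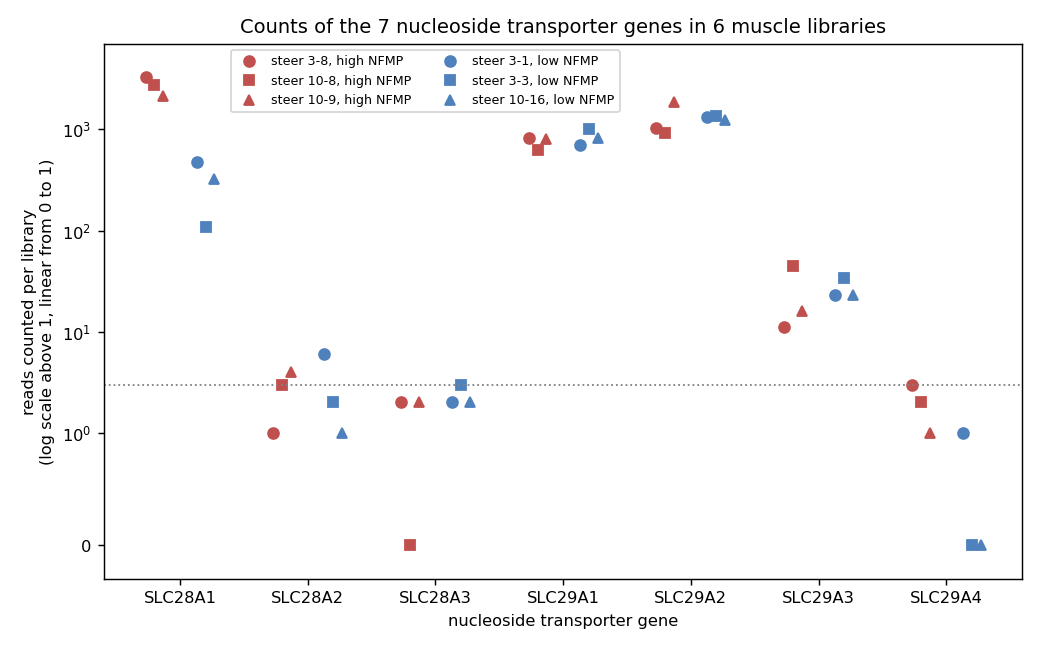
Reads counted on each of the 7 nucleoside transporter genes (x axis) in each of 6 libraries (y axis, log scale above 1 and linear from 0 to 1), red for high and blue for low NFMP with a symbol for each steer. The dotted line marks 3 reads. SLC28A1 is between 2120 and 3314 in the red points and between 108 and 480 in the blue ones, whereas the colours overlap in SLC29A1, SLC29A2 and SLC29A3.

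The other concentrative carriers were at the limit of detection in LT. SLC28A2 (CNT2), which prefers purine nucleosides, had counts of 1, 3 and 4 with high NFMP against 6, 2 and 1 with low NFMP. SLC28A3 (CNT3), which takes both kinds, had counts of 2, 0 and 2 against 2, 3 and 2. No group difference was detectable at this depth, and neither gene passed the filter on low counts, so neither was tested.

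The equilibrative carriers SLC29A1 and SLC29A2 were present at similar levels in both groups. SLC29A1 (ENT1), the widely expressed adenosine carrier of the plasma membrane, had 816, 620 and 803 reads with high NFMP against 697, 1021 and 832 with low NFMP. The groups overlapped, and normalized counts averaged 773.7 ± 74.2 (SD, n = 3) against 817.2 ± 140 (SD, n = 3). By edgeR the log2 fold change was -0.08 with a standard error of 0.19 (adjusted p = 0.90), and the 95% interval of the fold ran from 0.714 to 1.26.

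SLC29A2 (ENT2), which also carries nucleobases, had 1031, 922 and 1858 reads with high NFMP against 1336, 1369 and 1228 with low NFMP. The low-NFMP steers lay inside the range of the high-NFMP steers, and steer 10-9 stood 1.80 times above the mean of the other high-NFMP steers. Normalized counts averaged 1311 ± 479 (SD, n = 3) with high NFMP and 1262 ± 19.8 (SD, n = 3) with low NFMP. The edgeR log2 fold change was 0.06 with a standard error of 0.22 (adjusted p = 0.946), with a 95% interval of the fold from 0.745 to 1.45. For SLC29A1 and SLC29A2 the interval did not reach a fold change of 2 in either direction.

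The remaining equilibrative carriers were sparse. SLC29A3 (ENT3), a carrier of lysosomal and mitochondrial membranes, had 11, 45 and 16 reads with high NFMP against 23, 34 and 23 with low NFMP. Steers 3-8 and 10-8 of the same group were the lowest and the highest of the 6. The edgeR log2 fold change was -0.0016 with a standard error of 0.52 (adjusted p = 0.999), but the 95% interval of the fold, from 0.460 to 2.17, was wide enough to hold a change of 2-fold either way. SLC29A4 (PMAT), which mainly carries monoamines, had 3, 2 and 1 counts against 1, 0 and 0, at or under the limit of 3 reads in all 6 libraries, and was not tested.

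Of the 6 relatives of SLC28A1, 3 were tested, and 0 were past the threshold of the study (a fold change above 2 at an unadjusted p below 0.05) by edgeR, against 3.9% of all 15039 tested genes. At an unadjusted p below 0.05 alone the number was 0 by edgeR, by DESeq2 and by quantile normalization with limma, against 11.5% of all tested genes by edgeR. With so few relatives, 0 is also near what these backgrounds give. The median log2 fold change of the 3 was -0.0016, beside 0.02 for all tested genes.

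The order of the family within a library differed with the group. SLC28A1 was the most counted of the 7 genes in each high-NFMP steer, and it came after SLC29A2 and SLC29A1 in each low-NFMP steer. It held 64.0% of the counts of the 7 genes in steer 3-8 (95% Wilson interval 62.7% to 65.3%), 63.5% in steer 10-8 (62.0% to 64.9%) and 44.1% in steer 10-9 (42.7% to 45.5%). In the low-NFMP steers it held 18.9% in steer 3-1 (17.4% to 20.4%), 4.26% in steer 3-3 (3.54% to 5.11%) and 13.4% in steer 10-16 (12.1% to 14.8%). The mean was 57.2% ± 11.3 (SD, n = 3) with high NFMP and 12.2% ± 7.38 (SD, n = 3) with low NFMP. These shares do not depend on library size, and they rest on the same SLC28A1 counts as the difference above.

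**Figure D2:**
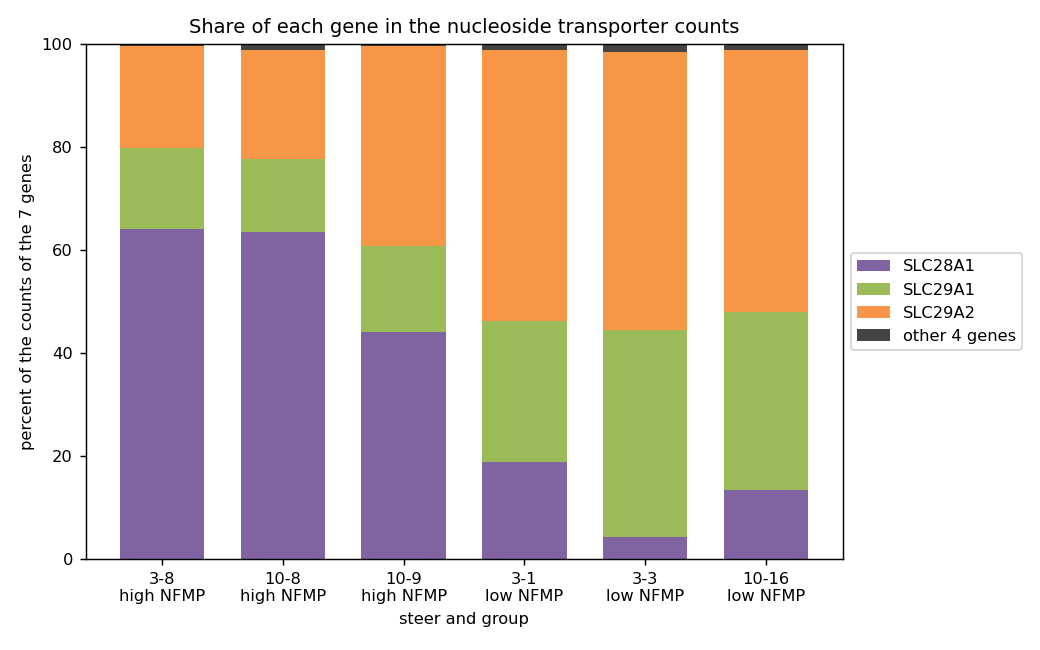
Share of each gene in the summed counts of the 7 nucleoside transporter genes (y axis, percent) in each steer (x axis). SLC28A1 takes between 44.1% and 64.0% of the bar in the high-NFMP steers and between 4.26% and 18.9% in the low-NFMP steers.

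The counts of SLC28A1 were 4.06, 4.46 and 2.64 times those of SLC29A1 with high NFMP and 0.689, 0.106 and 0.388 times with low NFMP. Steer 10-9 was nearest to equal with SLC29A2, at a ratio of 1.14, since its SLC29A2 was the highest and its SLC28A1 the lowest of the high-NFMP group. Among the equilibrative carriers the order was the same in all 6 libraries, with SLC29A2 counted 1.63 ± 0.40 times as often as SLC29A1 (SD, n = 6). The groups overlapped in that ratio, at 1.69 ± 0.55 (SD, n = 3) against 1.58 ± 0.30 (SD, n = 3). Summed over the 6 relatives, normalized counts were 2117 ± 502 (SD, n = 3) and 2110 ± 136 (SD, n = 3). Reads of this method start near the poly(A) tail, so counts were compared between genes as counts of transcript ends and were not divided by length.

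The spread inside the groups was unequal among the members. In the low-NFMP group SLC28A1 ranged over 4.60-fold, with a coefficient of variation of 61.6%, and 97.5% of the tested genes had a smaller SD of log2 counts in that group. Set against tested genes within 2-fold of its own mean level in the same group, 99.8% of 4309 had a smaller SD in the low-NFMP group, where SLC28A1 averaged 17.6 CPM, and 75.2% of 1058 in the high-NFMP group, where it averaged 169.8 CPM. The low-NFMP value rested on steer 3-3, without which the low-NFMP range was 1.41-fold. In the high-NFMP group SLC28A1 ranged over 1.58-fold, and 53.3% of the tested genes had a smaller SD. SLC29A2 had the opposite pattern, with a coefficient of variation of 1.57% in the low-NFMP group, less than the 2.76% that counting alone gives on average, and 36.5% in the high-NFMP group.

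SLC28A1 was higher with high NFMP within both sets of steers that share the first number of the label, whose meaning the labels do not state. Since the groups did not overlap, any set with steers of both groups shows this, so it adds no support. In the steers with number 3, normalized counts were 3358 in the high-NFMP steer and 279.6 on average in the 2 low-NFMP steers. In those with number 10, they were 2599 on average in the 2 high-NFMP steers and 326.1 in the low-NFMP steer. Ages overlapped little between the groups. The nearest in age were steers 10-8 and 3-3, and the normalized count of the former was 30.7 times that of the latter. Steer 3-3 was the lowest of all in SLC28A1. Steers 10-9 and 10-16, aged 34.5 and 35.4 months, had 2126 and 326.1 normalized counts. With age as a term in the fit the log2 fold change of SLC28A1 was 4.15 (standard error 0.62).

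**Figure D3:**
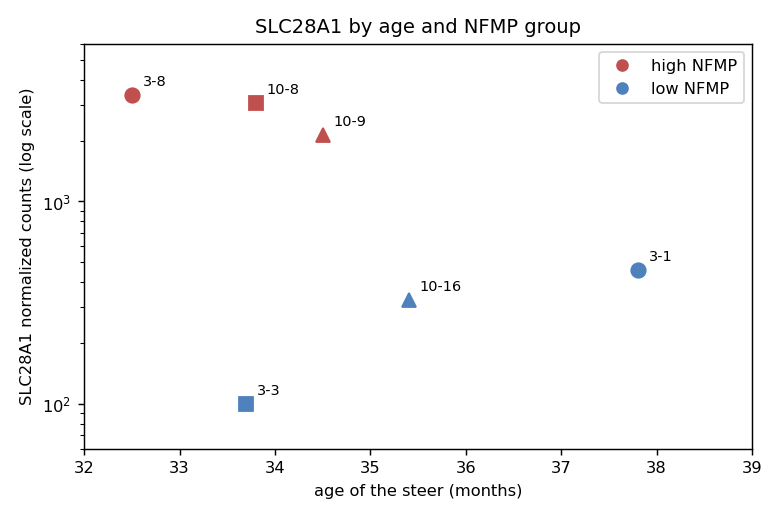
Normalized counts of SLC28A1 (y axis, log scale) against the age of the steer in months (x axis), red for high and blue for low NFMP. The steers at 33.7 and 33.8 months are the lowest of all and the middle of the high-NFMP group, 30.7-fold apart.

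Markers of liver and intestine, in which SLC28A1 is known, were summed in each library. The liver list had ALB, APOA1 and FGB among its members. It summed to 14, 12 and 265 counts with high NFMP and to 30, 11 and 43 with low NFMP. The 4 intestine markers with a row, VIL1, SI, CDX1 and CDX2, summed to between 4 and 12 counts. The part of these tissues in the SLC28A1 counts was not tested. The red cell markers, relevant to SLC29A1, which red cells carry, summed to between 3.24 and 5.49 CPM, and their part in the level of SLC29A1 was not tested.

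The adipocyte markers were highest in steer 3-8, as was SLC28A1, but next highest in steer 3-3, which had the lowest SLC28A1. Their summed level ranged from 199.9 to 551.7 CPM in the high-NFMP group and from 184.7 to 259.5 CPM in the low-NFMP group. The log2 fold change was positive in all 7, with a median of 0.63, but that rested on steer 3-8. Without it 3 of the 7 were positive and the median was -0.06, with FABP4 at -0.33, LEP at -0.51, PLIN1 at -0.06 and LPL at -0.10, while SLC28A1 was at 3.14. With any other steer left out, all 7 were positive.

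At an unadjusted p below 0.05 by edgeR were 3 of the 7 adipocyte markers, beside 11.5% of all tested genes, and 1 of the 7 without steer 3-8. The 3 with all steers were ADIPOQ, with a log2 fold change of 0.63 (adjusted p = 0.291), CIDEC, with 0.89 (adjusted p = 0.214), and CIDEA, with 0.69 (adjusted p = 0.405). In the same 3 the groups did not overlap after normalization, beside 17.1% of all tested genes, and without steer 3-8 their log2 fold changes were 0.36, 0.45 and 0.63. Past the threshold were 0 of the 7, beside 3.9% of all tested genes, and between 0 and 2 with a steer left out. The part of fat cells in the SLC28A1 counts was not tested.

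The summed levels of the endothelial and of the macrophage markers overlapped between the groups. The 6 endothelial markers summed to between 69.9 and 93.9 CPM against 63.9 to 84.3 CPM, with a median log2 fold change of -0.01. The values were 0.93 for CLDN5 (edgeR unadjusted p = 0.00987, adjusted p = 0.255), 0.38 for VWF, -0.01 for PECAM1 and EMCN, -0.16 for CDH5 and -0.46 for KDR. The 5 macrophage markers summed to between 21.6 and 37.7 CPM against 20.2 to 38.8 CPM, with a median log2 fold change of 0.26. With a steer left out the macrophage median lay between 0.07 (without steer 3-1) and 0.72 (without steer 3-3). The values with all steers were 0.73 for CSF1R, 0.57 for CD14, 0.26 for MRC1, -0.10 for CD68 and -0.56 for CD163, the last moving to -1.18 without steer 3-8. With all steers 0 of these 11 markers were past the threshold, beside 3.9% of all tested genes, but CLDN5 was past it without steer 10-8, at 1.04, and without steer 3-3, at 1.28, and CD163 was past it without steer 3-8. Taken singly, CLDN5, CSF1R and CD14 (higher with high NFMP) and CDH5 (lower) did not overlap between the groups after normalization, which is 2 of the 6 and 2 of the 5, beside 17.1% of all tested genes. The part of these cells in the SLC28A1 counts was not tested.

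The genes beside SLC28A1 on the chromosome had no fold change near its size. In the RefSeq gene table of the assembly ARS-UCD2.0 no gene overlapped any of the 7 transporter genes. The nearest gene before SLC28A1 was ALPK3, a kinase gene of heart and skeletal muscle, with 8601, 5770 and 7527 reads with high NFMP against 9408, 5930 and 8063 with low NFMP. Its groups overlapped, and by edgeR its log2 fold change was 0.0030 with a standard error of 0.22 (adjusted p = 0.998). SLC28A1 was at 38.5%, 47.9% and 28.2% of the ALPK3 counts with high NFMP and at 5.10%, 1.82% and 4.01% with low NFMP.

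On the other side of SLC28A1, past a pseudogene without a row in these data, lay PDE8A, a phosphodiesterase gene that breaks down cyclic AMP. It had 1859, 1248 and 1413 reads against 1269, 1197 and 1212. After normalization the groups did not overlap. The log2 fold change of 0.40 (standard error 0.18) had an unadjusted p of 0.0444 and an adjusted p of 0.423 by edgeR, and it was not past the fold change limit. Where within SLC28A1 the reads lay was not analysed here.

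Of the 12 neighbours of the relatives, 4 had too few counts to be tested, and 0 of the other 8 were past the threshold, beside 3.9% of all tested genes. For SLC29A1 these were LOC101905365, with a log2 fold change of -0.12 (edgeR adjusted p = 0.905), and MYMX, the gene of the muscle fusion peptide myomixer, which had at most 12 counts in a library and was not tested. For SLC29A2 they were LOC112444944 and NPAS4, with at most 5 and 4 counts, and neither was tested. CDH23 beside SLC29A3 had a log2 fold change of 0.13, and TNRC18 beside SLC29A4 had -0.22. GATM, an enzyme of creatine synthesis beside SLC28A2, had 0.62 with counts of 10 to 36, and RMI1 beside SLC28A3 had at most 14 counts and was not tested. Where the nearest gene had no row of its own, the next with one was taken: SHF after SLC28A2 had 0.38, NTRK2 after SLC28A3 had 0.22, UNC5B before SLC29A3 had 0.20 and WIPI2 after SLC29A4 had 0.35. In CDH23 alone of these 8 the groups did not overlap after normalization, beside 17.1% of all tested genes. The adjusted p of the 8 by edgeR was at least 0.57.

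The genes that followed SLC28A1 most closely over the 6 libraries were an RNA gene of the small nuclear class, LOC112442818 (r = 0.991), CIDEA (r = 0.990), LOC101907926 (r = 0.990), CYP26B1 (r = 0.988) and ARSE (r = 0.988). The measure was Pearson's r of log2 CPM, given as a description, since the points share their libraries and the group difference alone raises it. Of all tested genes, 233 (1.55%) had an r above 0.9. The r of SLC29A1, SLC29A2 and SLC29A3 with SLC28A1 was -0.46, -0.11 and -0.25.

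All 5 of these genes were less abundant than SLC28A1 in each library and had smaller fold changes. The gap was narrow in steer 3-3, with 108 reads for SLC28A1 against 47 for CIDEA and 44 for CYP26B1. CIDEA, a lipid droplet protein gene of fat cells and a member of the adipocyte list, had 88, 74 and 75 counts against 61, 47 and 50. CYP26B1, whose enzyme breaks down retinoic acid, had 102, 111 and 102 counts against 67, 44 and 55. In both, steer 3-3 was the lowest, as for SLC28A1. The log2 fold changes of the 5 genes lay between 0.69 for CIDEA and 1.60 for LOC112442818.

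**Figure D4:**
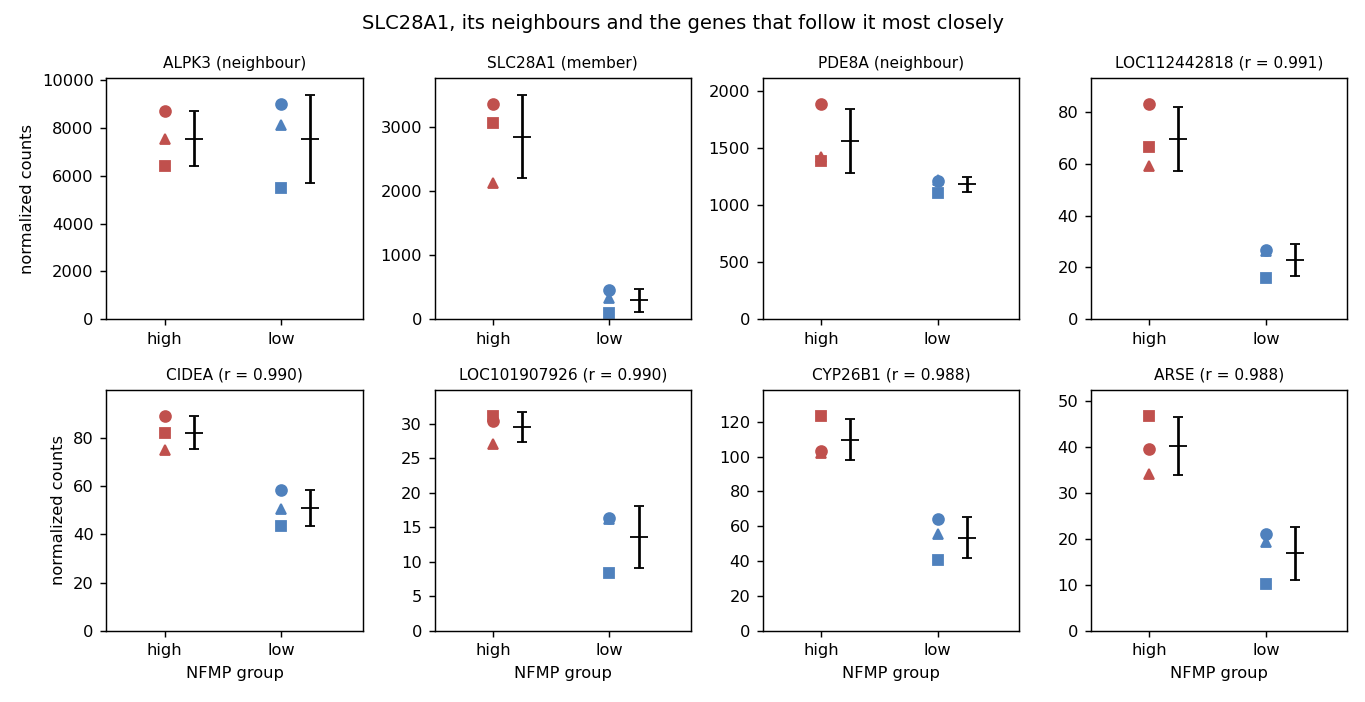
Normalized counts (y axis, starting at 0) of SLC28A1, its neighbours ALPK3 and PDE8A, and the 5 genes most like it, in high (red) and low (blue) NFMP steers with the mean and SD of 3 beside them. ALPK3 overlaps between the groups, while the 5 genes follow SLC28A1 with r from 0.988 to 0.991 at levels of up to 123.4 counts.

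The enzymes that use and make nucleosides inside the cell were compared in the same fit. Of 32 salvage and breakdown enzymes, 31 had a row, 25 were tested, and 0 were past the threshold by edgeR, beside 3.9% of all tested genes, and 0 of 25 is near that background. At an unadjusted p below 0.05 alone, 1 was below by edgeR, 1 by DESeq2 and 0 by quantile normalization with limma, beside 11.5% of all tested genes by edgeR. Their log2 fold changes lay between -0.53 and 0.58 with a median of 0.12, and in 17 of the 25 the 95% interval lay inside a 2-fold change.

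The gene with that p, named for it after the values were seen, was ADA, adenosine deaminase, which turns adenosine into inosine. It had 358, 212 and 369 reads with high NFMP against 302, 200 and 171 with low NFMP, so the groups overlapped. Its fold was 1.50 (edgeR unadjusted p = 0.0377, adjusted p = 0.407), under the fold change limit.

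The 5 most abundant enzymes were XDH, PNP, AMPD1, ADK and AMPD3. XDH, which makes uric acid from hypoxanthine and xanthine, averaged 1330 ± 141 normalized counts (SD, n = 3) with high NFMP and 1269 ± 206 (SD, n = 3) with low NFMP. PNP, which splits inosine and guanosine, had 972.6 ± 102 against 859.1 ± 64.7. AMPD1, the AMP deaminase of muscle, had 868.9 ± 335 against 901.0 ± 217, and AMPD3, another AMP deaminase, had 845.5 ± 230 against 777.3 ± 54.4. ADK, which phosphorylates adenosine back to AMP, had 770.3 ± 79.1 against 975.9 ± 91.6, with no overlap between the groups and an edgeR adjusted p of 0.493. The groups did not overlap in 3 of the 25 tested enzymes, ADK, DGUOK and AMPD2, beside 17.1% of all tested genes. On average, each of the 5 most abundant enzymes was counted more often than SLC28A1 with low NFMP and less often with high NFMP.

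Several enzymes of the list act on pyrimidine nucleosides, the substrates of SLC28A1. The uridine and cytidine kinases UCK1, UCK2 and UCKL1 had log2 fold changes of 0.12, 0.15 and 0.16. The thymidine kinases TK1 and TK2 had 0.39 and -0.29. The deoxycytidine kinase DCK had 0.53 (standard error 0.66), with counts of 4 to 22. UPP1 and UPP2, the uridine phosphorylases, had at most 13 and 8 counts in a library and CDA, cytidine deaminase, had at most 2, and these 3 did not pass the filter on low counts.

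Of the 10 genes listed as adenosine receptors or as exporters of nucleosides or nucleotides, 9 had a row, 5 were tested, and 0 were past the threshold by edgeR, with 0 at an unadjusted p below 0.05 by edgeR, DESeq2 or quantile normalization with limma. Over all tested genes these shares were 3.9% and 11.5% by edgeR, so that 0 of 5 is near the background. ABCC5, an exporter of cyclic nucleotides, led these 5, with an average of 555.2 ± 190 normalized counts (SD, n = 3) against 773.8 ± 352 (SD, n = 3). PANX1, a channel that releases ATP, had 191.8 ± 22.3 against 218.2 ± 35.5, and ABCG2, an exporter with a wide range of substrates, had 138.6 ± 23.9 against 108.0 ± 12.4. The receptors ADORA2B and ADORA1 had log2 fold changes of 0.17 and -0.06. In these 5 genes the groups overlapped, and only for ABCG2 and PANX1 did the 95% interval lie inside a 2-fold change.

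**Figure D5:**
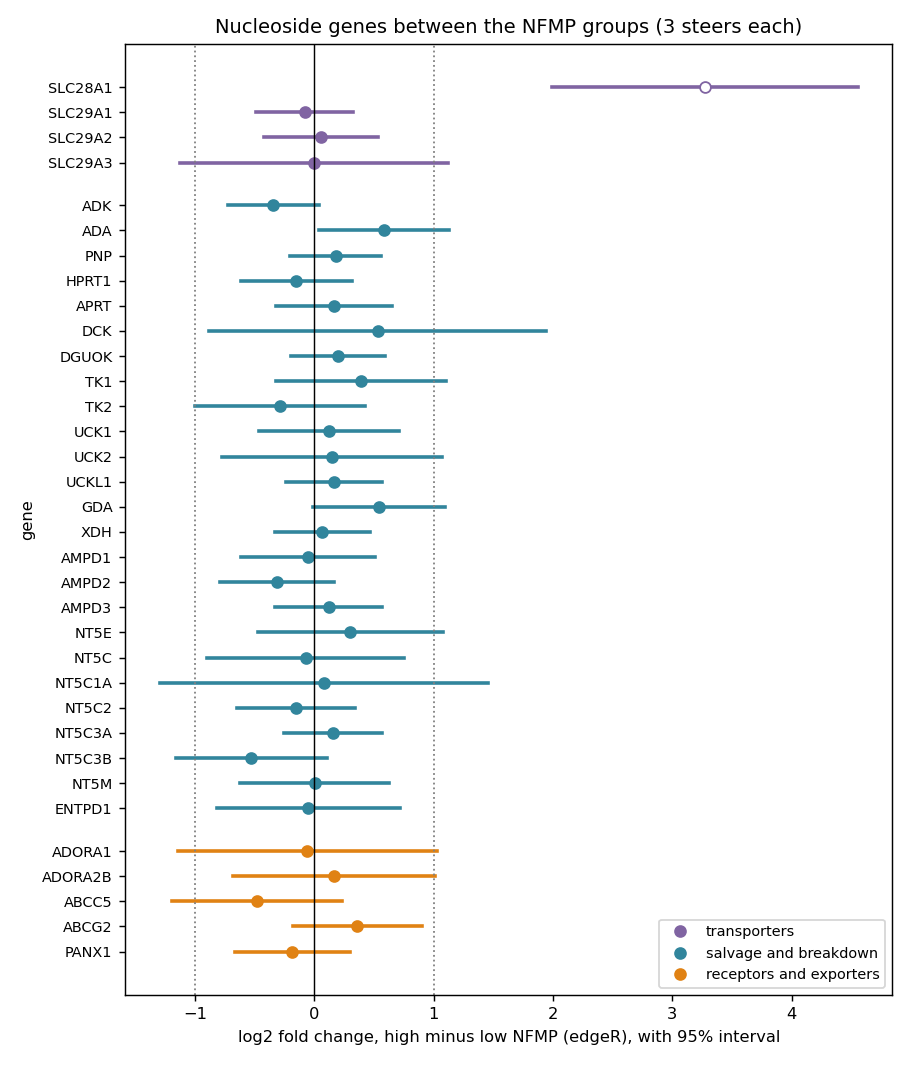
Log2 fold change of high minus low NFMP with its 95% interval (x axis) for each tested transporter, salvage or breakdown enzyme, receptor and exporter (y axis), from 3 steers a group. Dotted lines mark a 2-fold change, and the open symbol marks SLC28A1, which was chosen for its difference. SLC28A1 is at 3.27, while all other points lie between -0.53 and 0.58.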

How the data were processed

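The authors deposited raw read counts per gene symbol for each of the 6 steers, made with a 3′ mRNA kit. Their methods name UMD3.1 with Tophat2 and HTSeq, but also Bowtie2 with reads of single and multiple alignments, and which route was used for the deposited counts is unclear. Strand use in counting was not stated. Counts were whole numbers for 23015 rows.

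From these, edgeR 4.0.16 in R 4.3.3 kept 15039 rows (minimum count 10, minimum total 15). TMM factors lay between 0.915 and 1.083, and groups were compared with the robust quasi-likelihood test and Benjamini-Hochberg adjustment over all rows kept. Normalized counts are scaled to the mean effective library size. Log2 CPM for correlations used a prior count of 2. Standard errors by edgeR were the absolute log2 fold change over the square root of the quasi-likelihood F statistic. Intervals of fold changes are 95%. For SLC28A1, chosen for its difference, both are descriptive only. An exact permutation test of 3 against 3 steers cannot give a p below 0.1. The procedures were tested on simulated data.

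The members and lists were chosen with earlier results of these data known. Named were the members, the nearest gene on each side of each, the 5 genes most like SLC28A1, and list members past the threshold or among the 5 most counted. Genes named outside this rule (ADA, DGUOK, AMPD2, the pyrimidine enzymes, the marker genes and genes below the filter) were chosen after their values were seen. A further marker list is not reported here, for a reason unrelated to its values. Leaving out steers for the marker lists was added after seeing the data. The spread inside groups was also examined after the values were seen. Coordinates are not given, since the RefSeq gene table is of another assembly. DESeq2 1.42.0 and limma 3.58.1 were alternatives.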

Additional observations from a re-analysis of the deposited data

How the results depend on the processing

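SLC28A1 was higher in the high-NFMP group under all 14 alternatives, which adds no support, since it was chosen for that difference. With age as a term its log2 fold change was 4.15, a move of 0.87 beside an SD between steers of 0.84 pooled over both groups (0.35 in the high-NFMP and 1.14 in the low-NFMP group), and the move was below that pooled SD under the other 13 alternatives. It lay between 2.86 (without steer 3-3) and 3.74 (without steer 3-1) when a steer was left out. Its share of the family counts lay between 53.8% and 63.7% in the high-NFMP group and between 8.83% and 16.1% in the low-NFMP group with a steer left out. Dividing by coding length was not run. Adipocyte markers with a positive log2 fold change were between 3 and 7 of 7 with a steer left out, an alternative chosen after seeing the data. The relatives and the salvage enzymes past the threshold were 0 under all 14 alternatives. Of the receptors and exporters, 1, ADORA3, was past it without the filter on low counts, where more genes were tested. Over all genes, 969 were past the threshold without a filter and 364 with at least 10 counts in every library, against 586, and between 630 and 744 with a steer left out.

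The signs of the 3 tested relatives were not stable, as their values lay near 0. SLC29A1 ranged from -0.21 to 0.035 with a steer left out. SLC29A2 was -0.0062 with library totals alone and -0.032 with the first label number as a term, and it ranged from -0.27 (without steer 10-9) to 0.25 with a steer left out. SLC29A3 was 0.0040 with RLE size factors and 0.0073 by DESeq2, and it ranged from -0.87 (without steer 10-8) to 0.36 with a steer left out. Their unadjusted p by these models was at least 0.128. The depth limits SLC28A2, SLC28A3, SLC29A3 and SLC29A4.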

Other observations

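Of the transporters and nucleoside lists, 13 genes with a row lay below the filter on low counts, and in 3 of these the groups did not overlap after normalization. Among the genes that passed the filter that share was 17.1%. These 3 were picked after their values were seen, and have no test in the comparison. ADORA3, the A3 adenosine receptor, had 9, 11 and 4 reads with high NFMP against 0, 1 and 3 with low NFMP. CDA, cytidine deaminase, which turns cytidine into uridine, had 1, 2 and 1 reads with high NFMP and was at 0 in all 3 low-NFMP steers, all within the limit of 3 reads. SLC29A4 had 3, 2 and 1 reads against 1, 0 and 0, so a high and a low steer were tied at 1 read before normalization.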
